A study of Mus musculus with 13 samples.

Results

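Chemokines are small secreted proteins that attract leukocytes by binding G protein-coupled receptors, and they are classed as CC or CXC ligands by the spacing of their first cysteines. Most atypical receptors bind the same ligands without attracting cells, and several of them remove these ligands. Homeostatic chemokines such as Cxcl12 and Ccl19 place cells in resting tissue, whereas inflammatory ones such as Ccl2, Cxcl1 and Cxcl9 are induced by cytokines, and several belong to the secretory products described in senescent cells. The 9 chemokines described here are Ccl2, Ccl5, Ccl8, Ccl19, Cxcl1, Cxcl2, Cxcl9, Cxcl12 and Cxcl16, a list given by name, and all 9 had a row among the 23366 genes of the expression table.

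Their transcripts were measured in the pancreas of 13 female reprogrammable i4F-B mice, with 1 RNA sequencing library per mouse. The 4 young mice were 13 weeks old, the 5 old mice were 55 weeks old, and the 4 old-OSKM mice were labelled as 58 weeks old at the end of the experiment. The old-OSKM mice had received doxycycline in drinking water with added sucrose for 7 days at 55 weeks, and were sampled after 2 weeks of recovery. Doxycycline switches on the reprogramming factors Oct4, Sox2, Klf4 and c-Myc (OSKM). All 3 groups carried the inducible OSKM transgene, which in this strain is ubiquitous and sits within the Pparg gene, and the young and old mice were untreated. OSKM expression, doxycycline itself, the sucrose and the additional 3 weeks of age therefore cannot be told apart in the old-OSKM group. Summed levels of 8 acinar markers, among them the digestive enzyme genes Prss2 and Cpa1, were between 6920 and 7390 RPKM (reads scaled to transcript length and library size) in every mouse, so the defining transcripts of exocrine pancreas were abundant. Quantile normalization gives every mouse nearly the same set of values, so this narrow range is no measure of equal acinar content. Since whole tissue was sequenced, fewer cells of a type and less RNA per cell cannot be told apart.

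Old-OSKM mouse 1 stood apart from the other 12, and results that rest on it are also given without it. It had the highest level of the 13 mice in 6 of the 9 chemokines (Ccl2, Ccl5, Ccl8, Ccl19, Cxcl9 and Cxcl16), and in 8.5% of all genes. Its summed T and NK cell markers (9 of 10 listed genes measured) were 8.22 RPKM, against 1.25 to 2.66 in the other mice. Cd3e, a subunit of the T cell receptor complex, was at 0.69 log2 RPKM in this mouse and between -2.80 and -1.15 in the others.

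In old compared with young pancreas, Ccl8 was the single chemokine of the 9 that passed the test, and it was 3.62-fold higher. A gene is called here when its fold change is over 1.5 and its raw limma p is under 0.01, a rule that called 0.886% of all genes in this comparison. Old-OSKM and old mice differed in none of the 9 by this rule (0.753% of all genes were called). Between old-OSKM and young mice, which shares its samples with the other 2 comparisons, Ccl8 and Ccl19 were called as higher (0.625% of all genes). None of these calls had an adjusted p under 0.05 over all 23366 genes with limma and the Benjamini-Hochberg method. The smallest adjusted p of the 9 chemokines was 0.551 in the first comparison, 0.547 in the second and 0.591 in the third.

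**Figure D1:**
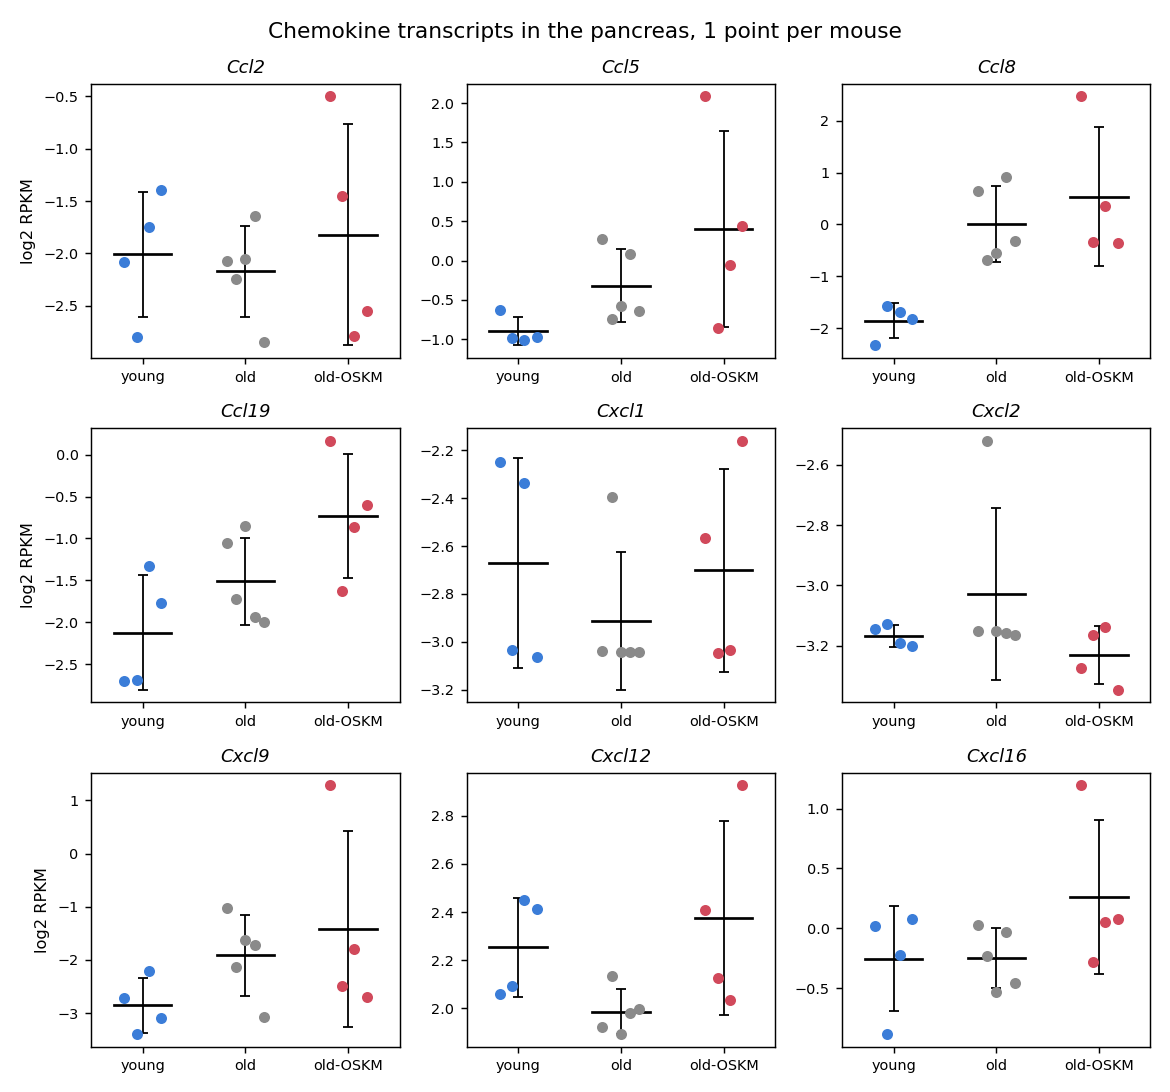
Level of each of the 9 chemokines (log2 RPKM) in the young (n = 4), old (n = 5) and old-OSKM (n = 4) mice. Points are mice, horizontal lines are group means and bars are SD. The 5 old mice lie above all 4 young mice for Ccl8, and a single old-OSKM mouse lies far above the others for Ccl2, Ccl5, Ccl8, Cxcl9 and Cxcl16.

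Ccl8, a CC chemokine that in mice attracts T cells through Ccr8, is encoded on chromosome 11 (GRCm38.p6, 82115185 to 82116799). The 4 young mice had -2.33, -1.57, -1.69 and -1.82 log2 RPKM. The 5 old mice had 0.65, -0.70, -0.55, 0.92 and -0.31, so that the lowest old mouse was above the highest young one. The 4 old-OSKM mice had 2.48, -0.35, 0.36 and -0.35, and 3 of them lay within the range of the old mice. Values of the 2 groups compared did not overlap in 2.71% of all genes for old against young mice, and Ccl8 was 1 of the 9 chemokines in which they did not. The difference was 1.86 ± 0.56 on the log2 scale (SE, adjusted p = 0.551 with limma). An exact permutation test gave a two-sided p of 0.00794, the smallest that 5 mice against 4 allow. Against the young mice, the old-OSKM mice were higher by 2.39 ± 0.59 (5.24-fold, adjusted p = 0.591 with limma), again without overlap, which holds for 1.9% of all genes in that comparison. The exact permutation p was 0.0286, the smallest that 4 mice against 4 allow. This difference was 1.74 without old-OSKM mouse 1. Between old-OSKM and old mice it was 0.53 ± 0.56 (exact permutation p = 0.556), and -0.11 without old-OSKM mouse 1. The age call was lost when any 1 of the 4 young mice, old mouse 1 or old mouse 4 was left out, with the old mice still higher by at least 1.63. It was also lost when a pseudocount of 1 or 0.1 RPKM was added.

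The numbers of the sample identifiers form 2 runs, here called early and late by their numbers only. The late one holds young mice 3 and 4 and old mouse 5. No label says that these runs are batches or were processed at different times. Within the early run the 4 old mice exceeded the 2 young mice by 2.04 in Ccl8, and within the late run the 1 old mouse exceeded the 2 young mice by 1.44. With the run as a covariate the difference was 1.84, which no longer met the rule. All old-OSKM mice belonged to the early run, where they differed from the 4 old mice by 0.45.

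The 250 bases upstream of the transcription start are shown for Ccl8, since it is the chemokine that passed the test with age, and for Cxcl1, Cxcl2 and Cxcl9, which hold a kappaB-like motif. They are RefSeq promoters of GRCm38.p6, read 5′ to 3′ on the gene's strand, and 6 of the 9 chemokines had one in the table used here. Capitals mark the TATA box letters TATAAA and the kappaB-like letters GGNNTTTCC on either strand. These motifs were chosen after the letters had been seen.
Ccl8 (chr11:82114935-82115184, plus strand): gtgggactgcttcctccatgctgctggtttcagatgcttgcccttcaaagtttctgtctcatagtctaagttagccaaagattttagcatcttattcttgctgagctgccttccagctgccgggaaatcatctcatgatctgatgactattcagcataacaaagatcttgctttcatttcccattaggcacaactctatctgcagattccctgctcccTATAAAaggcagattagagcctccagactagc
Cxcl1 (chr5:90890995-90891244, plus strand): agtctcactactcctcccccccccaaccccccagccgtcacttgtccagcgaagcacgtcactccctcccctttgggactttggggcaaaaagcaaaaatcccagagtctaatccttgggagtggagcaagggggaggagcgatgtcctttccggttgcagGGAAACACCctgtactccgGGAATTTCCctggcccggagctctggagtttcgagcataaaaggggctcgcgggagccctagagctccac
Cxcl2 (chr5:90903649-90903898, plus strand): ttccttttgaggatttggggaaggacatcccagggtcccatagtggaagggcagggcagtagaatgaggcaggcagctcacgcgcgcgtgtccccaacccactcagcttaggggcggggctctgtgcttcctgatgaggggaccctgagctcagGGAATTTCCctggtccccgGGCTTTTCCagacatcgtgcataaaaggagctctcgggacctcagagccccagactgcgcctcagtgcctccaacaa
Cxcl9 (chr5:92328080-92328329, minus strand): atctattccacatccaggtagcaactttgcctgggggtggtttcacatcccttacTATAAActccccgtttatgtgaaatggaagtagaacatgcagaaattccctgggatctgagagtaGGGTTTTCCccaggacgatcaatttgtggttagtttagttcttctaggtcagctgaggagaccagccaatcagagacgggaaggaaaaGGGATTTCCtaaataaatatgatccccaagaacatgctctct
TATAAA occurred in the windows of Ccl8 and Cxcl9, and in 12.4% of 32851 promoters of the same length. GGNNTTTCC, a form of the site bound by NF-kB, occurred in those of Cxcl1, Cxcl2 and Cxcl9 and in 4.93% of all promoters. TTCNNNGAA, a form of the site bound by Stat proteins, was in none of the 6 and in 7.02% of all. A match is a description of the letters only.

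Ccl8 lies in a cluster of CC chemokine genes on chromosome 11, and its neighbours differed less between old and young mice. From Ccl2 to Ccl1 the cluster holds Ccl2, Ccl7, Ccl11, Ccl12, Ccl8 and Ccl1, with starts at most 79.6 kb from that of Ccl8. Old minus young differences were -0.16 for Ccl2, -0.33 for Ccl7, -0.63 for Ccl11, 0.42 for Ccl12 and 0.011 for Ccl1, beside 1.86 for Ccl8. Ccl11, the eosinophil attractant eotaxin, was the most abundant of them at a mean of 1.22 log2 RPKM. Ccl8 was singled out after its values had been seen, so its distance from the neighbours was not tested. Between old-OSKM and old mice the same neighbours differed by 0.35, 0.53, 0.72, 0.66 and -0.14, and Ccl8 by 0.53. Without old-OSKM mouse 1 these became -0.092 for Ccl2, -0.0082 for Ccl7, 0.73 for Ccl11, 0.41 for Ccl12, -0.092 for Ccl1 and -0.11 for Ccl8.

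**Figure D2:**
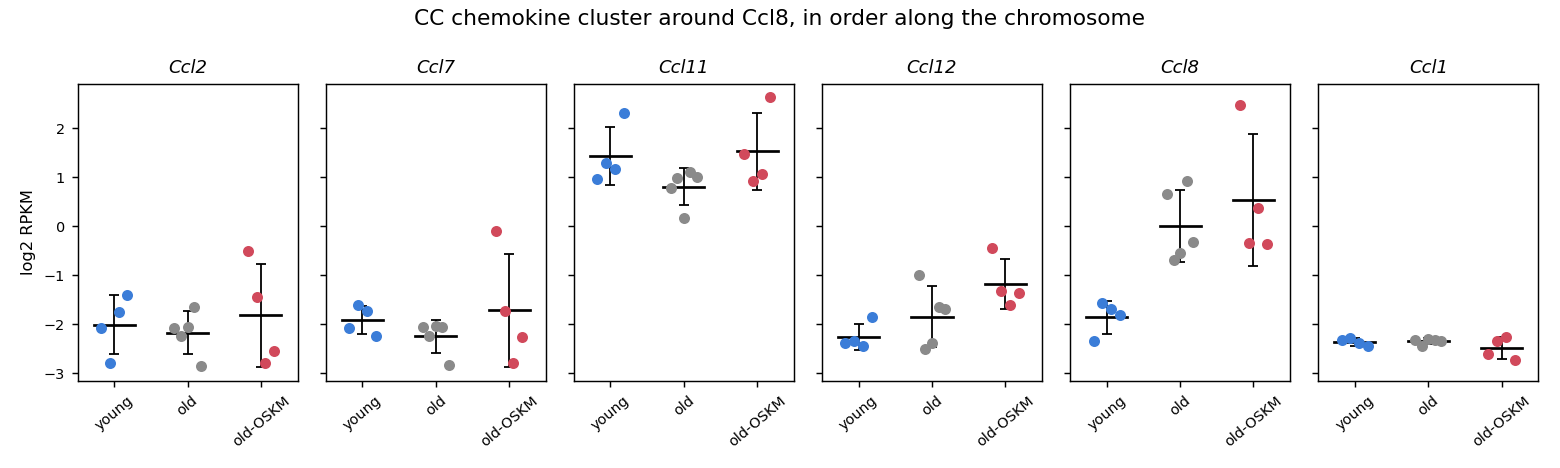
Levels (log2 RPKM, 1 shared axis) of Ccl8 and the 5 nearest CC chemokine genes in their order along chromosome 11, by group. Points are mice, lines are means and bars are SD. Old and young mice separate for Ccl8, while for Ccl2, Ccl7, Ccl11, Ccl12 and Ccl1 their points overlap.

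Ccl2, the principal attractant of monocytes through Ccr2, is encoded at the start of that cluster (82035577 to 82037452). The young mice had -2.08, -2.80, -1.75 and -1.40 log2 RPKM, the old mice -2.08, -2.24, -2.05, -1.64 and -2.85, and the old-OSKM mice -0.50, -1.45, -2.79 and -2.55. All 3 groups overlapped. The old-OSKM minus old difference of 0.35 ± 0.45 (SE) became -0.092 without old-OSKM mouse 1. Ccl2 overlaps Gm17268 on the opposite strand, and counting by strand is not stated, so reads of the 2 genes cannot be told apart there.

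Ccl5, also called RANTES, attracts T cells and monocytes and is encoded on chromosome 11 (83525778 to 83530518). The young mice had -0.63, -0.98, -1.01 and -0.96 log2 RPKM, and the old mice 0.27, -0.74, -0.58, 0.09 and -0.64. Among the old-OSKM mice the values were 2.09, -0.85, -0.06 and 0.44. Of the 5 old mice 3 were above every young mouse, as were 3 of the 4 old-OSKM mice. The old minus young difference was 0.58 ± 0.47 (SE, exact permutation p = 0.0714), and the old-OSKM minus old difference was 0.73 ± 0.47 (exact p = 0.294) and 0.16 without old-OSKM mouse 1. The old-OSKM minus young difference was 1.30 ± 0.50 (exact permutation p = 0.0571), and it passed the rule at 1.72 without old-OSKM mouse 2.

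Ccl19 attracts dendritic cells and naive T cells through Ccr7 and is encoded on chromosome 4 (42754525 to 42756365). The young mice had -2.71, -2.68, -1.33 and -1.77 log2 RPKM, the old mice -1.05, -1.72, -0.86, -1.94 and -1.99, and the old-OSKM mice 0.17, -1.63, -0.86 and -0.60. Neighbouring groups overlapped, and 3 of the 4 old-OSKM mice were above every young mouse. The old-OSKM minus young difference was 1.39 ± 0.43 (SE, 2.63-fold, adjusted p = 0.706 with limma), and the exact permutation test gave p = 0.0571. The call was lost in 6 of the 13 fits that left out 1 mouse: young mouse 1 or 2, old mouse 2, or old-OSKM mouse 1, 3 or 4, with differences of 1.09 to 1.44. Ccl19 had the largest share of repeated sequence among the 9, since 52.0% of its 50-base stretches also occur in its pseudogenes Ccl19-ps1 and Ccl19-ps3 and in Gm12407 and Gm2564. It also overlaps 4930578G10Rik on the opposite strand.

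Cxcl1 and Cxcl2, the neutrophil attractants that signal through Cxcr2, are neighbours on chromosome 5 (starts at 90891245 and 90903899). Their upstream windows hold the GGNNTTTCC letters shown above. Cxcl1 was within -3.06 to -3.03 log2 RPKM in 8 of the 13 mice, and Cxcl2 within -3.20 to -3.13 in 10 of the 13. Such nearly constant low values measure no difference between the groups. The mice above this level in Cxcl1 were young mice 1 and 3 (-2.25 and -2.34), old mouse 2 (-2.40) and old-OSKM mice 1 and 4 (-2.57 and -2.16). For Cxcl2, old mouse 2 (-2.52) was the single mouse clearly above it. Neither gene was called, and the exact permutation p was at least 0.246 in every comparison. In Cxcl2, 5.84% of 50-base stretches are shared with Cxcl3.

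Cxcl9, an interferon gamma-induced attractant of activated T cells through Cxcr3, is encoded on chromosome 5 (92321331 to 92328079). The young mice had -2.72, -3.40, -2.21 and -3.10 log2 RPKM, and the old mice -1.02, -2.14, -1.62, -1.72 and -3.07. The old-OSKM mice had 1.29, -2.49, -1.79 and -2.69. Old mouse 5 lay among the young mice, and 4 of the 5 old mice were above all of them. The old minus young difference was 0.94 ± 0.73 (SE, exact permutation p = 0.0714). The old-OSKM minus old difference of 0.49 ± 0.73 became -0.41 without old-OSKM mouse 1. In the late identifier run old mouse 5 differed by -0.42 from the mean of the 2 young mice, where the early run gave an old minus young difference of 1.43.

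Cxcl12, the homeostatic ligand of Cxcr4 that stromal and endothelial cells make, was the most abundant of the 9 chemokines and varied least among the old mice. It is encoded on chromosome 6 (117168535 to 117181368), and its mean was above that of 93.8% of all genes. The young mice had 2.06, 2.09, 2.45 and 2.41 log2 RPKM, the old mice 1.92, 2.14, 1.89, 1.98 and 2.00, and the old-OSKM mice 2.41, 2.13, 2.03 and 2.93. Old mouse 2 overlapped both other groups, and the remaining 4 old mice lay below every young and every old-OSKM mouse. The old minus young difference was -0.27 ± 0.16 (SE, exact permutation p = 0.0317), and the old-OSKM minus old difference was 0.39 ± 0.16 (adjusted p = 0.547 with limma; exact permutation p = 0.0238). Both were under the fold threshold of 1.5, and both use the same 5 old mice. Without old-OSKM mouse 4, the highest mouse, the second difference was 0.20. That mouse had also the highest summed fibroblast and stellate cell markers, 66.6 RPKM against 19.9 to 45.1 in the others, and the highest endothelial markers, 21.4 RPKM against at most 17.8 in the others. It was also the highest for the duct, islet, mesothelial, adipocyte, erythroid and immediate early lists, and in 16.0% of all genes. The part of these cells in the result was not tested.

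Cxcl16, a membrane-bound chemokine shed by Adam10, attracts Cxcr6-bearing T and NKT cells and is encoded on chromosome 11 (70454389 to 70459984). The young mice had 0.01, -0.89, -0.22 and 0.07 log2 RPKM, the old mice 0.02, -0.23, -0.54, -0.03 and -0.46, and the old-OSKM mice 1.20, -0.28, 0.05 and 0.07. The groups overlapped. The old minus young difference was 0.0088 ± 0.29 (SE), and the old-OSKM minus old difference of 0.51 ± 0.29 (exact permutation p = 0.103) became 0.19 without old-OSKM mouse 1. Of its 50-base stretches 16.9% are shared with Zmynd15, which overlaps it on the opposite strand.

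**Figure D3:**
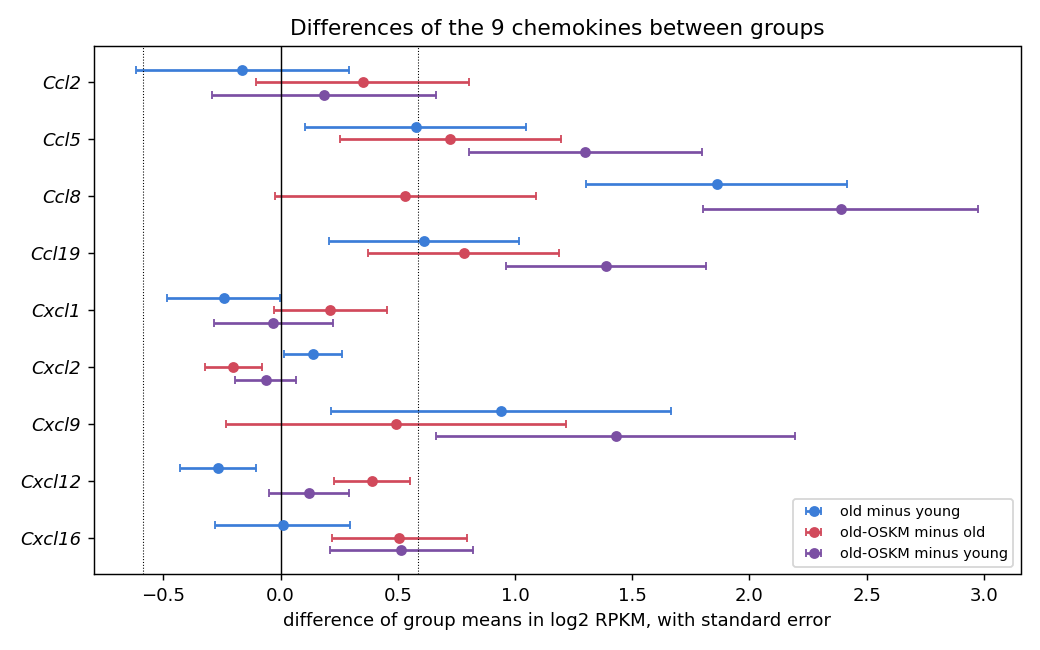
Differences of group means (log2 RPKM) of the 9 chemokines in the 3 comparisons, with the standard error of the limma fit as bars. Dotted lines mark a fold change of 1.5 in either direction. Ccl8 lies at 1.86 for old minus young and 2.39 for old-OSKM minus young, and the bars of Cxcl1 and Cxcl2 lie inside the dotted lines.

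As a list, the 9 chemokines had a median difference of 0.14 in old minus young mice, against 0.0013 over all genes, with 6 higher and 3 lower. For old-OSKM minus old the median was 0.49 against -0.039 over all genes, with 8 higher and 1 lower, and none of the 9 separated the groups (1.73% of all genes did). Without old-OSKM mouse 1, 5 of the 9 were higher and the median was 0.16. Ordered by level in the old mice, Cxcl12 was far above the rest at 1.99 ± 0.094 (SD, n = 5), and Ccl8 (0.0021 ± 0.73), Cxcl16 (-0.25 ± 0.25) and Ccl5 (-0.32 ± 0.46) followed within their spread. Ccl19 (-1.51 ± 0.52), Cxcl9 (-1.91 ± 0.76) and Ccl2 (-2.17 ± 0.44) also lay within their spread of each other. In the young mice Ccl8 was at -1.86 ± 0.34, below Ccl5 at -0.90 ± 0.18.

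Of the other 29 chemokine ligands, 1 was called in any of the 3 comparisons. For this and the lists below, the shares of all genes serve as the background. The rule called 0.886% of all genes for old against young, 0.753% for old-OSKM against old and 0.625% for old-OSKM against young mice. Values did not overlap in 2.71%, 1.73% and 1.9% of all genes in the same order. Ccl12, a murine monocyte attractant, was higher in old-OSKM than young mice by 1.08 ± 0.34 (SE, adjusted p = 0.706 with limma; exact permutation p = 0.0286), without overlap. It was 0.83 and no call without old-OSKM mouse 1, and it was a call in 5 of the 13 fits that left out 1 mouse. Among the 17 other CC ligands 10 were higher in old than young mice and 12 in old-OSKM than old mice, and among the 12 other CXC, XC and CX3C ligands 8 and 9 were. Without old-OSKM mouse 1 those counts of old-OSKM against old became 8 of 17 and 6 of 12. Ccl11 and Ccl27a had the highest means among the CC ligands, and Cxcl14 (0.25) and Pf4 (0.13) among the others. Cxcl14, a ligand made by epithelium and stroma, was lower in all 5 old mice than in all 4 young ones (-0.81 ± 0.35, exact permutation p = 0.0159) and was named after its values had been seen. Old-OSKM mouse 1 was the highest of the 13 in 20 of all 38 ligands, among them the interferon-induced Cxcl10 (0.82 log2 RPKM, others -2.44 to -0.62).

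**Figure D4:**
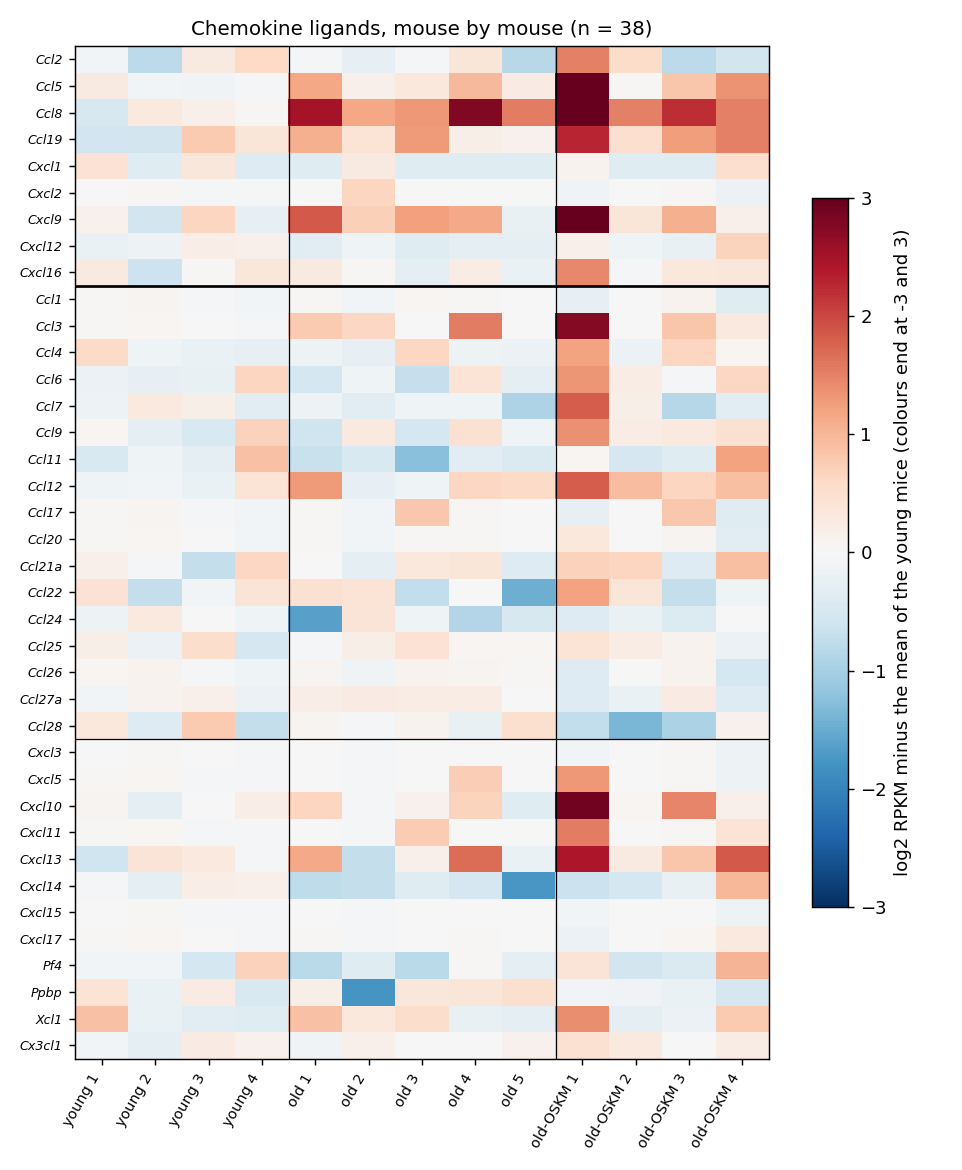
Each of the 38 chemokine ligands (rows) in each mouse (columns) as log2 RPKM minus the mean of the 4 young mice, with the 9 chemokines above the thick line. Red is higher and blue lower. The column of old-OSKM mouse 1 is red in most rows, and Ccl8 is red in every old and old-OSKM mouse.

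Of the 18 signalling receptors, Xcr1 and Cxcr3 were called, each in 1 of the 3 comparisons, in which 0.886%, 0.753% and 0.625% of all genes were called. Xcr1, a receptor of cross-presenting dendritic cells, was higher in old-OSKM than old mice (0.94 ± 0.29, adjusted p = 0.547 with limma; exact permutation p = 0.0397). It was 0.72 without old-OSKM mouse 1, and a call in 6 of 13 fits that left out 1 mouse. Cxcr3, the receptor of Cxcl9, was higher in old-OSKM than young mice (1.64 ± 0.37, 3.12-fold, adjusted p = 0.446 with limma; exact permutation p = 0.0571), and by 1.30 without old-OSKM mouse 1, and was called in all 13 such fits. Its values were -2.39, -3.51, -3.59 and -3.59 in the young mice, -2.39, -2.02, -2.83, -2.38 and -2.11 in the old mice and -0.59, -2.41, -1.79 and -1.72 in the old-OSKM mice. Only young mouse 1 of the young mice reached the old and old-OSKM values. The other young mice lay between -3.59 and -3.51, a nearly constant low level, so the size of the fold change is uncertain. These other receptors of the 9 chemokines were not called between old-OSKM and old mice: Ccr2 differed by 0.75 ± 0.34, Cxcr6 by 0.57 ± 0.20, Cxcr4 by 0.30 ± 0.22 and Ccr7 by 0.21 ± 0.52. Without old-OSKM mouse 1 these were 0.42 for Ccr2, 0.40 for Cxcr6, 0.079 for Cxcr4 and -0.30 for Ccr7. Ccr1 (0.62), Ccr8 (0.15), Cxcr2 (0.011) and Ccr3 (-0.15) were not called either. Ccr2 and Cx3cr1 had the highest means of the signalling receptors. Old-OSKM mouse 1 was the highest mouse in 13 of the 18, and 10 of 18 were higher in old-OSKM than old mice without it, against 15 of 18 with it.

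Of the 5 atypical receptors, Ackr4, which removes Ccl19, was called as lower in old than young mice (-0.70 ± 0.23, 1.63-fold, adjusted p = 0.612 with limma; exact permutation p = 0.0238), without overlap, and was a call in 5 of 13 fits that left out 1 mouse. Ackr3, which removes Cxcl12, was also lower in every old than in every young mouse (-0.52 ± 0.21), and higher in every old-OSKM than in every old mouse (0.45 ± 0.21). Each had an exact permutation p of 0.00794, neither passed the rule, and the same 5 old mice enter both. Of all genes, 2.71% did not overlap between old and young mice and 1.73% between old-OSKM and old mice. The rule called 0.886% of all genes between old and young mice. Ackr3 and Ccrl2 were the most abundant of the 5. Of 13 receptor signalling genes, led by the G protein subunit genes Gnb1 and Gnai3, Rgs1, a brake on chemokine receptor signalling, was called between old-OSKM and young mice (1.35 ± 0.38, adjusted p = 0.706 with limma; exact permutation p = 0.0286). It was 1.12 without old-OSKM mouse 1, and a call in 8 of 13 fits.

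Of 25 NF-kB and inflammatory cytokine genes, Tnf, which induces many inflammatory chemokines, was called as higher in the old-OSKM group than in the old group (1.28 ± 0.26, adjusted p = 0.547 with limma; exact permutation p = 0.00794). The 5 old mice lay at a nearly constant low value, within -3.59 to -3.54 log2 RPKM, and the 4 old-OSKM mice had -1.78, -2.85, -2.34 and -2.14. The difference was 1.12 without old-OSKM mouse 1, and Tnf was called in all 13 fits that left out 1 mouse. Because the old mice hardly varied at that low value, the size of the difference is uncertain, and these fits do not remove that limit. Young mouse 2 (-2.36) was within the old-OSKM range and young mouse 3 (-2.88) just under it. Ltbr and Chuk had the highest means of this list. None of 10 interferon gamma pathway genes and none of 5 chemokine processing genes was called in any comparison; Jak1 and Ifngr2 led the former, and Sdc4 and Adam10 the latter.

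Several marker lists of leukocytes were highest in the same mice. Summed macrophage and monocyte markers (9 genes) were 32.5 RPKM in old-OSKM mouse 1 and 30.6 in old-OSKM mouse 4, against 9.1 to 19.7 in the other 11 mice. All 9 of them were higher in old-OSKM than old mice with and without old-OSKM mouse 1, and none was called. Lymphoid tissue markers (7 genes) summed to 4.40 and 3.35 RPKM in these 2 mice and to 1.65 to 2.62 in the others. This list holds the chemokines Ccl21a and Cxcl13, which are also counted among the ligands above, so the 2 descriptions are not independent. B and plasma cell markers (7 genes) were all higher in old than young mice, by a median of 0.95 log2. Among them the immunoglobulin joining chain gene Jchain was called, and Xbp1 had an exact permutation p of 0.429. Their summed levels were 33.9 to 39.6 RPKM against 29.8 to 34.5. A sum follows the most abundant genes of a list, so it is no measure of the number of B and plasma cells. Dendritic cell markers (6 genes, among them the receptor gene Ccr7) summed to 3.54 to 4.04 RPKM in old and 2.51 to 2.97 in young mice, without overlap. By itself only 1 of the 6 did not overlap, the transcription factor gene Zbtb46, which was called (0.63 ± 0.14). In the summed dendritic cell markers, old-OSKM mouse 1 had 5.45 RPKM and the other old-OSKM mice 2.89 to 3.61. Neutrophil markers (5 of 6 listed genes measured) were 0.902 to 2.74 in old and 0.922 to 1.89 in young mice, and 3.27 in old-OSKM mouse 1 but lowest, at 0.806, in old-OSKM mouse 4. T and NK cell markers spanned 1.5 to 2.37 RPKM in old and 1.25 to 1.79 in young mice. Of these and the B cell markers Cd3g, Cd79b, Ms4a1 and Jchain were called as higher in old-OSKM than young mice, and without old-OSKM mouse 1 only Jchain was. The defining markers were low: Cd8a was at -3.26 or less in all young mice. Macrophage markers were not higher with age, since 8 of the 9 were lower in old mice. Fibroblast and stellate cell markers were also lower in old mice in 8 of 8 genes, with Col1a1 called. Col1a1 and Col1a2 were called as higher in old-OSKM than old mice (by 0.88 and 0.89), as was the adipocyte gene Plin1 (1.53). Without old-OSKM mouse 1 none of the 3 was called, with differences of 0.73, 0.81 and 1 in the same order. They were called in 8, 4 and 7 of the 13 fits that left out 1 mouse, so leaving out other mice also lost these calls. The part of any of these cell types in the chemokine values was not tested.

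**Figure D5:**
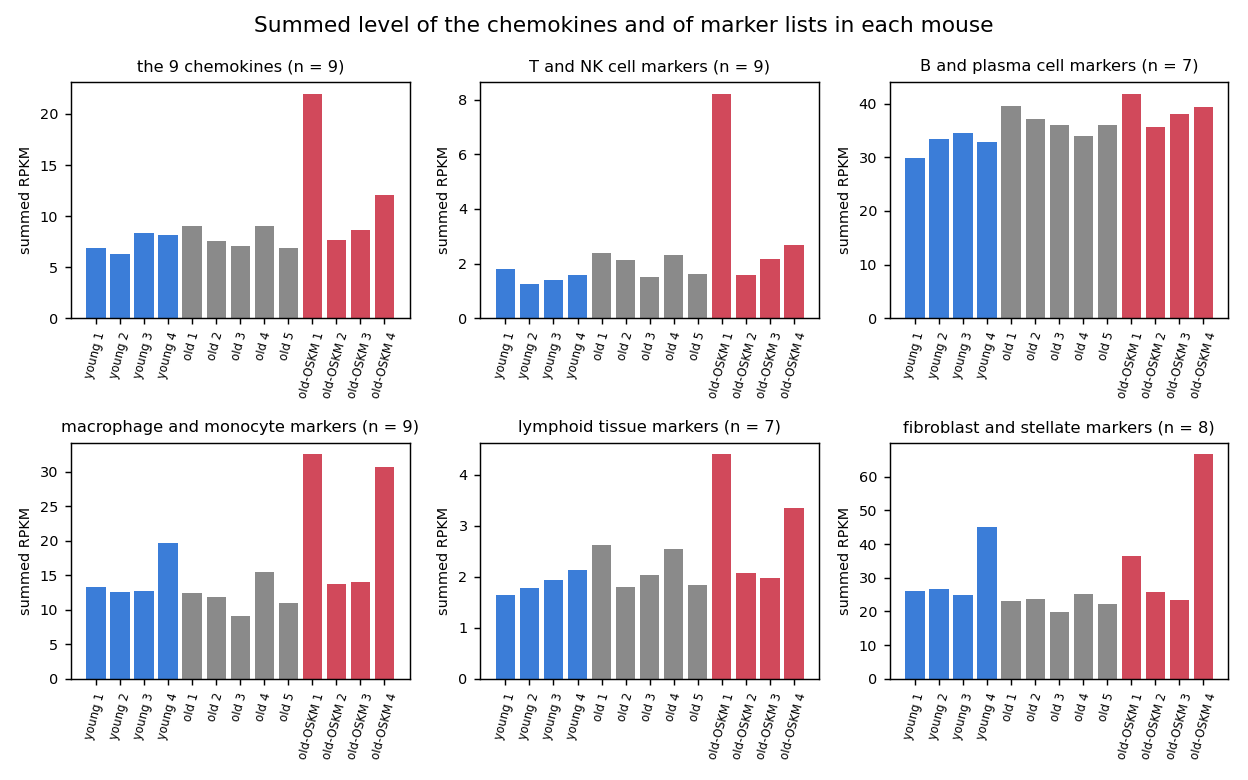
Summed level (RPKM, axes start at 0) of the 9 chemokines and of 5 marker lists in each mouse, with young mice in blue, old in grey and old-OSKM in red. Old-OSKM mouse 1 is highest for the chemokines, T and NK cell, B and plasma cell, macrophage and lymphoid tissue markers, and old-OSKM mouse 4 for fibroblast markers.

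For each chemokine, the genes with the most similar values over the 13 mice were sought among 8410 genes with a mean above 0 log2 RPKM, as a description. Cxcl12 was closest to Apoe (Pearson r = 0.981, and 0.965 without its 2 farthest mice), then to Ambp and Hmgb1. Cxcl16 was closest to the leukocyte actin-bundling gene Lcp1 (r = 0.925, and 0.945 without 2 mice), then to Ptprc and Fcer1g. Ccl5 was closest to the antigen presentation gene H2-Aa (r = 0.927, and 0.713 without old-OSKM mice 1 and 4), then to Tap1 and Mpeg1. Ccl8 was closest to H4c2 (r = 0.868), Ctsb and Npc2, Cxcl9 to Nampt (r = 0.901), H3c3 and H4c2, and Ccl2 to Pnp (r = 0.881), Cndp2 and Selenot. For these 3 the coefficients fell to between 0.542 and 0.83 without their 2 farthest mice, of which old-OSKM mouse 1 was always 1. Ccl19 was closest to Rcn1 (r = 0.807, and 0.684 without 2 mice), Ctsh and Rab8b. Cxcl1, at its nearly constant level, was closest to Lrrc45 (r = 0.816, and 0.67 without 2 mice), Dnm1l and Srrt. Cxcl2 was closest to Arf5, Dhps and Ccnq, and its coefficient with Arf5 went from 0.815 to -0.024 without old mouse 2 and old-OSKM mouse 4.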

How the data were processed

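Pancreas RNA of 13 mice was depleted of ribosomal RNA and sequenced, 1 library per mouse. The authors aligned the reads with STAR 2.3.0e to mm10, estimated RPKM per isoform with Casper, summed them per Entrez gene, and quantile normalized the log2 values. The deposited log2 RPKM were used unchanged, without pseudocount or filter. A correction for total reads, which the study also describes, was not repeated: the methods give 1 general read number for all samples, and totals per library were not used here. Symbols and coordinates came from RefSeq GRCm38.p6 (23273 of 23366 genes). Replicate numbers only name mice.

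All 3 groups were fitted together with limma 3.58.1 in R 4.3.3, tested on simulated data, with Benjamini-Hochberg adjustment over all genes. Exact permutation tests were two-sided. Named genes were the 9 chemokines, their receptors, called genes and the 2 most abundant genes of each list of ligands, receptors and pathway genes, and the 3 genes most like each chemokine; an item withheld from the text is not reported here. Members and lists were chosen with earlier results of these data known.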

Additional observations from a re-analysis of the deposited data

Results flagged for a closer look

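Dixon's test was applied to each chemokine in each group of 4 or 5 mice. It marked 3 of 27 groups, where chance marks about 1 in 20. Young mouse 1 had the highest Ccl5 of the young mice at -0.628 log2 RPKM, against -1.01 to -0.96 in the other 3. Old mouse 2 had the highest Cxcl1 of the old mice at -2.40 and the highest Cxcl2 at -2.52, where the other 4 old mice were nearly constant. Old-OSKM mouse 1, with its high values in 6 chemokines, was not marked for any of them.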

How the results depend on the processing

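No paired analysis was possible because the labels give the mice no replicate numbers or shared litter. Of 612 results for single chemokines under an alternative, 589 kept their side of the threshold, 22 were no longer called and 1 became called. The cause was not tested. The main fit called only Ccl8 in old against young mice, and Ccl8 and Ccl19 in old-OSKM against young mice. All 22 losses fall on these calls. Most of the 589 were called in neither fit, so this number does not measure how stable the calls were. The sign changed in 16 of the 589, none of them called, and 15 of these came from leaving out a mouse, among them Ccl2, Ccl8 and Cxcl9 in old-OSKM against old mice without old-OSKM mouse 1. For old against young mice, 207 genes were called in all, and 44 with a mean above 0 log2 RPKM, 136 above -2, 16 with a pseudocount of 1 RPKM, 116 with 0.1, and 19 by adjusted p alone. The same settings called 35, 104, 2, 77 and 1 genes for old-OSKM against old mice, and 19, 81, 8, 76 and 10 for old-OSKM against young mice. Fewer genes are tested under the filters. The count of called chemokines in old against young mice was 0 above 0 log2 RPKM, which leaves only Cxcl12, with either pseudocount, by adjusted p and with the identifier run as covariate. In old-OSKM against young mice it was 0 above 0 log2 RPKM, with a pseudocount of 1 and by adjusted p, and 1 with only these 2 groups fitted. For Ccl8 in old against young mice the difference was 0.68 with a pseudocount of 1 and 1.56 with 0.1.

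Leaving out 1 mouse at a time gave 175 to 280 called genes for old against young mice, 94 to 338 for old-OSKM against old and 121 to 253 for old-OSKM against young. The extremes of the second range came without old-OSKM mice 1 and 2, and without old-OSKM mouse 3 it was 284. Called chemokines numbered 0 to 1, 0 to 0 and 1 to 3. The median difference of the 9 ranged from 0.010 to 0.17, from 0.16 to 0.69 and from 0.20 to 0.70. Leaving out mice for the other lists and genes was chosen after seeing the data. RPKM give no counting error, and every chemokine here except Cxcl12 had a mean under 0 log2 RPKM.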
